A study of Homo sapiens with 15 samples.

Results

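Bone marrow carrying MM.1S human myeloma cells was compared between mice given bortezomib and elesclomol together from the start of treatment (the combination) and mice given PBS. The members were chosen by their labels alone: 3 combination libraries and 3 PBS libraries, 6 of the 15 libraries of the series. MM.1S, an established line of human myeloma that here also carried green fluorescent protein and luciferase reporters, was injected intravenously into SCID-beige mice, which lack functional T and B cells and have impaired natural killer cells but keep their own marrow, stroma and myeloid cells. All groups share this line and host. Combination mice received bortezomib at 0.25 mg/kg intraperitoneally once a week and elesclomol at 25 mg/kg subcutaneously on the schedule of the single-drug group, while PBS mice received 200 uL intravenously once a week (the treatment protocol calls it saline). The mice given bortezomib alone or elesclomol alone at the same doses, 3 libraries each, serve as further points of comparison. Per the labels, 5 mice were treated per group, 3 tumours per group were sequenced, and marrow was flushed from the femurs when paralysis set in, so that each library shows marrow at the end of the disease and not at a set time after a dose. Age and sex are not stated in the labels. The labels do not say whether the 3 tumours of a group came from 3 mice, and p-values measure the spread between these libraries.

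Bortezomib blocks the chymotrypsin-like site of the proteasome, the complex that degrades ubiquitin-tagged proteins. Myeloma cells secrete large amounts of immunoglobulin, and their endoplasmic reticulum (ER) depends on chaperones, on the unfolded protein response that induces them, and on ER-associated degradation, which passes misfolded proteins to the proteasome. Elesclomol carries copper into cells and to mitochondria, where it binds ferredoxin 1 (FDX1) and is known to disturb lipoylated enzymes, iron-sulfur proteins and the respiratory chain. Growth factor signals through the ERK kinases switch on immediate early genes such as FOS, JUN and EGR1 within minutes, together with phosphatases of the DUSP family that switch the kinases off again.

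The count per library was 6448673 to 9227140 in the combination and 4500326 to 6287708 in PBS. Combination replicate 1 stood apart: it scored 45.02 on the first principal component, which held 32.9% of the variance over all 15 libraries, while combination replicates 2 and 3 scored -18.0 and 5.93 and the PBS libraries -23.1 to -22.3. The libraries also differed in GC content. Across genes within a library, the deviation of log2 CPM (counts scaled by effective library size) from the mean of all libraries correlated with GC content at 0.494, -0.253 and 0.0839 in combination replicates 1, 2 and 3, against -0.348 to -0.293 in PBS, so that the groups do not overlap in this measure; its part in the gene differences was not tested. A median with GC and length offsets, or without combination replicate 1, is given beside each list described whose median it moved by over 1.5 times. The nuclear transcript MALAT1 was at 1581, 4135 and 2880.3 CPM in the combination, against 3896, 4426 and 4549 CPM in PBS. Myeloma identity matched the labels: SDC1 (CD138), the surface proteoglycan of plasma cells, was at 1104, 1095 and 965 CPM in the combination, against 1092, 1077 and 1108 CPM in PBS, and the 13 plasma cell markers had a median log2 difference of 0.03 (0.08 without combination replicate 1 and 0.07 with GC and length offsets). Mouse cells were also in the flushed pellets, and how their reads were handled is not given in the sources used here. In bulk RNA of this kind, fewer cells of a type and less RNA per cell cannot be told apart.

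The combination differed from PBS by no single gene at the threshold used. Of 13085 genes tested with edgeR's quasi-likelihood test, 0 had a Benjamini-Hochberg adjusted p under 0.05 (0% called), and the smallest adjusted p was 0.114. At an unadjusted p under 0.05 there were 1010 genes higher and 774 lower in the combination, 13.6% of those tested. Other tools drew the line elsewhere: DESeq2 called 51 genes and limma voom with sample quality weights called 1394. The groups are therefore described below by the values in each library and by overlap. In 1477 genes (11.3%) all 3 combination libraries lay above all 3 PBS libraries, and in 1427 genes (10.9%) all 3 lay below. The median log2 difference over all genes was 0.01, and 51.7% of genes lay above 0. Each of the gene lists described below is read against these shares, and none of their members passed the adjusted test.

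**Figure D1:**
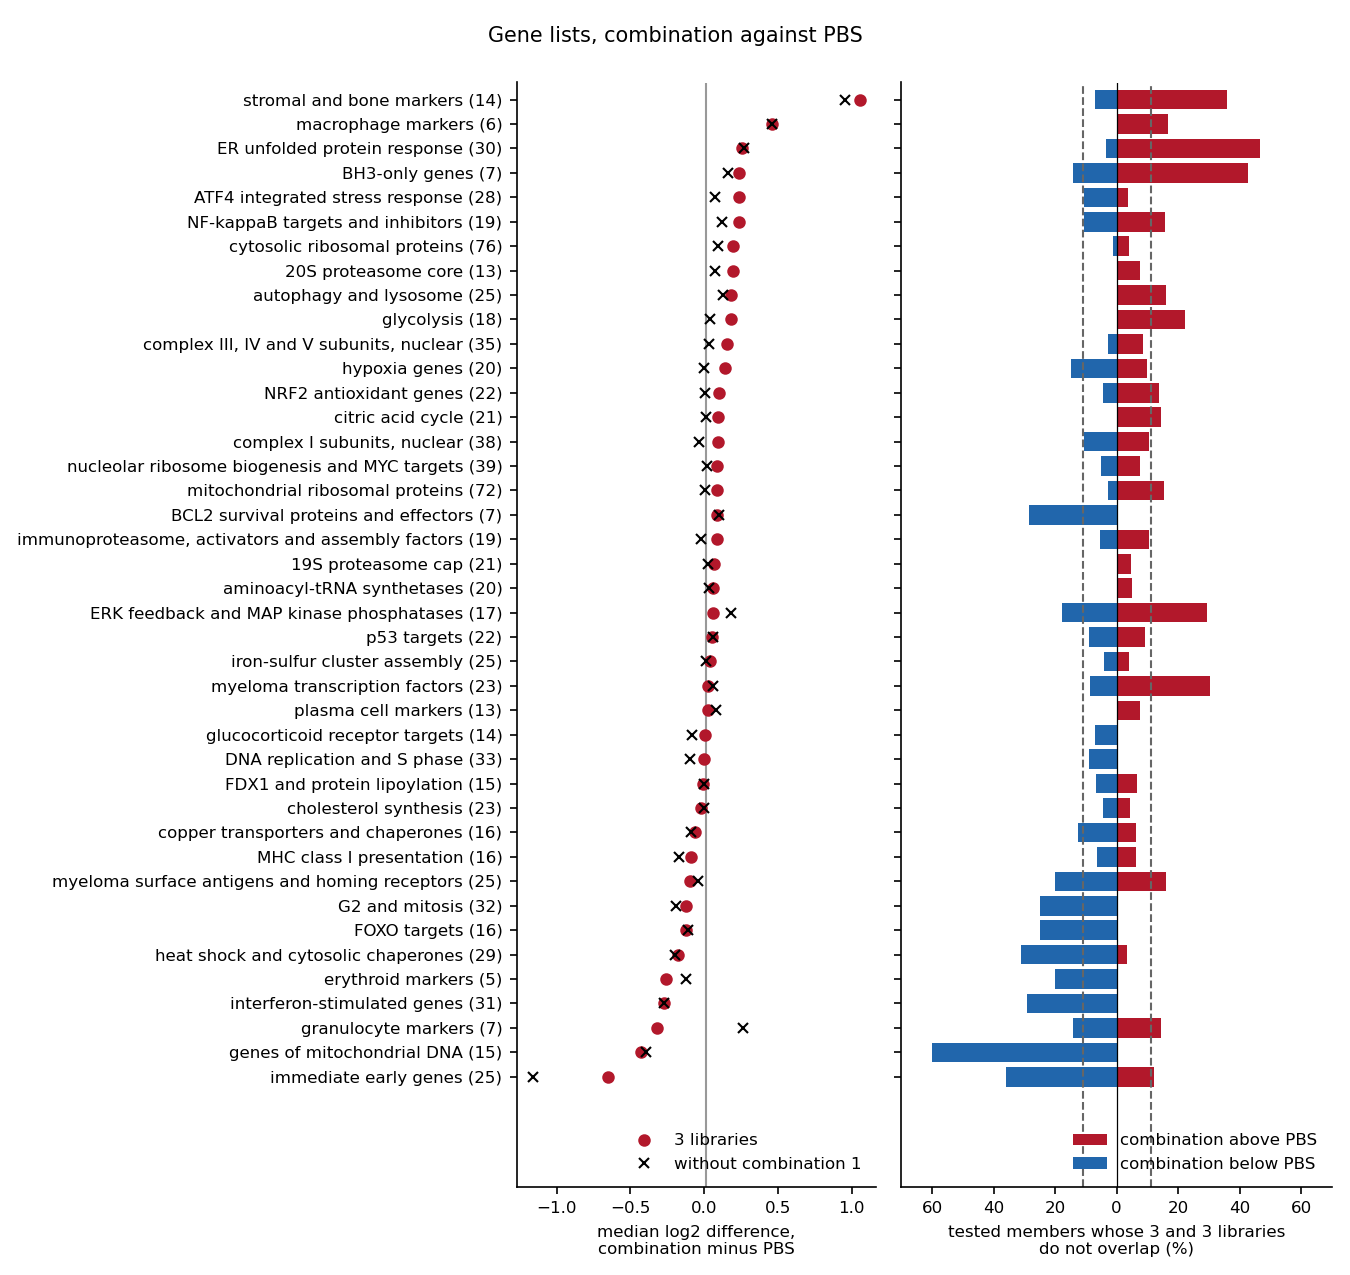
Gene lists with at least 5 tested members (number in brackets), ordered by median. Left, median log2 difference, combination minus PBS, with all 3 combination libraries (red) and without combination replicate 1 (cross); the grey line is the median of all genes, 0.01. Right, percent of tested members whose 3 combination libraries lie above (red) or below (blue) all 3 PBS libraries; dashed lines mark the shares over all genes, 11.3% and 10.9%. Immediate early genes and genes of mitochondrial DNA lie lowest, and ER unfolded protein response genes have the longest red bar.

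Of the 12 genes of smallest p on the higher side without overlap between groups, UBALD1 came first. It was at 13.8, 13.2 and 13.6 CPM in the combination, against 7.68, 7.93 and 6.92 CPM in PBS, a log2 difference of 0.85 ± 0.13 (SE, adjusted p = 0.114). NOS3, the endothelial-type nitric oxide synthase, was at 23.4, 23.8 and 24.98 CPM in the combination, against 13.5, 15.4 and 17.1 CPM in PBS (log2 0.64 ± 0.11, adjusted p = 0.132). Separation of the groups was a condition for naming these 12 genes. ETV5, an ETS-family transcription factor induced by ERK signalling, was at 67.4, 39.8 and 49.3 CPM in the combination, against 25.1, 18.1 and 22.8 CPM in PBS (log2 1.26 ± 0.21, adjusted p = 0.132). Its spread within the combination was wide, but the groups were far apart. The other 9 genes on the higher side had log2 differences of 0.46 to 0.95 and the same adjusted p of 0.158; they included WFS1 (wolframin, an ER membrane protein; 0.70 ± 0.14), SYVN1 (described with the ER genes), the sialyltransferase ST6GAL1 (0.50 ± 0.11), the 5-lipoxygenase activating protein ALOX5AP (0.78 ± 0.17), the Golgi GTPase activator ARFGAP1 (0.50 ± 0.10), SPON2, CRYL1, NXPE3 and AKNA.

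On the lower side, NFKBIZ, which encodes IkappaB-zeta, a nuclear protein of the IkappaB family, had the smallest p. It was at 19.3, 23.9 and 15.4 CPM in the combination, against 53.1, 42.98 and 37.7 CPM in PBS (log2 -1.19 ± 0.21, adjusted p = 0.147). RHOB, a small GTPase transcribed early after growth factor stimulation and stress, was at 131, 83.4 and 62.2 CPM in the combination, against 254, 254 and 222 CPM in PBS (log2 -1.39 ± 0.28, adjusted p = 0.158). In RHOB and in many early genes below, combination replicate 1 was the closest of the 3 to PBS. H3F3B, a gene for the replacement histone H3.3, was at 156, 143 and 125 CPM in the combination, against 230.3, 221 and 214 CPM in PBS (log2 -0.65 ± 0.12, adjusted p = 0.158). CDH2 (N-cadherin, an adhesion receptor carried by many myeloma cells) differed by -0.50 ± 0.10, ITGA6 (the laminin receptor integrin alpha 6) by -0.60 ± 0.13, and SESN3 (sestrin 3, a FOXO target that restrains mTORC1) by -1.28 ± 0.27. SH3BGRL2 and EPHX2, the soluble epoxide hydrolase, lay at -0.85 and -0.74. HSPD1, HSP90AA1, PMAIP1 and IER2 complete the 12 and are described with their groups.

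Immediate early genes were lower in the combination as a group. Of 29 listed genes 25 were tested, and 21 of the 25 had a log2 difference below 0, with a median of -0.65. In 9 of the 25 all combination libraries lay below all PBS libraries (10.9% of all genes did), and in 3 they lay above (11.3%). The median was -0.89 with GC and length offsets. The 9 were FOS, FOSB, JUN, EGR1, IER2, NR4A2, ATF3, KLF6 and MCL1. For EGR1, a zinc finger factor that serum response factor induces through CArG boxes, the promoter is shown because it holds 2 of these boxes (capitals) in the 300 bases from 250 before to 50 after the transcript start (RefSeq sequence, build GRCh38.p14, chr5:138465229-138465528, plus strand).
EGR1: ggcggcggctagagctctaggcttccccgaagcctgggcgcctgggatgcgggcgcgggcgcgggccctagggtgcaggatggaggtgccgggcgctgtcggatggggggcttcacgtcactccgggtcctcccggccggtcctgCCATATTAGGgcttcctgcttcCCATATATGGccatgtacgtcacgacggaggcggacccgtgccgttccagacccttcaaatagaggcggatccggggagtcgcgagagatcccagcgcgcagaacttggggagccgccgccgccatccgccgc
Promoters were found for 21 of the 25 genes, and a CArG box was in those of EGR1 and SRF, 2 of 21, and in 454 of 35116 promoters overall (1.29%). The cAMP response element TGACGTCA was in 3 of 21 (JUND, MAFF and PPP1R15A) and in 1.85% of all. Both strands were searched, and no match in the printed promoters overlaps a match to another motif searched.

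Of the 9 early genes lower without overlap, the AP-1 subunit genes FOSB, FOS and JUN had the lowest log2 differences. JUND and FOSL2, AP-1 subunit genes also tested in this list, were not among the 9. FOSB was at 17.1, 6.01 and 4.23 CPM in the combination, against 65.7, 96.2 and 65.8 CPM in PBS (log2 -3.02 ± 0.71, adjusted p = 0.19). FOS was at 69.9, 21.2 and 9.74 CPM in the combination, against 209.7, 256 and 172 CPM in PBS (log2 -2.65 ± 0.77, adjusted p = 0.257). In each, the highest combination library was replicate 1 and the groups were separated by a wide interval. JUN, their partner in AP-1, was at 199.7, 88.1 and 57.6 CPM in the combination, against 433, 567 and 434 CPM in PBS (log2 -2.05 ± 0.43, adjusted p = 0.158). EGR1 was at 40.7, 13.1 and 6.49 CPM in the combination, against 74.3, 93.7 and 64.7 CPM in PBS (log2 -1.92 ± 0.59, adjusted p = 0.28). The order of the 3 combination libraries, replicate 1 above 2 above 3, was the same in FOS, FOSB, JUN and EGR1. KLF6, a zinc finger tumour suppressor, was at 61.6, 58.8 and 53.6 CPM in the combination, against 150.3, 229 and 113 CPM in PBS (log2 -1.50 ± 0.36, adjusted p = 0.198). Here the 3 combination libraries lay close together and replicate 1 did not stand out. IER2, a nuclear early response protein, was at 13.4, 7.52 and 6.78 CPM in the combination, against 17.2, 22.4 and 23.4 CPM in PBS (log2 -1.17 ± 0.26, adjusted p = 0.158). NR4A2, an orphan nuclear receptor, and ATF3, a stress-induced repressor, had log2 differences of -1.25 ± 0.40 and -1.14 ± 0.36 (adjusted p = 0.28 and 0.275).

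Some early genes went the other way. MAFF, a small MAF factor, was at 16.9, 9.17 and 9.60 CPM in the combination, against 8.80, 6.71 and 7.62 CPM in PBS (log2 0.65 ± 0.28). CSRNP1, an AXIN1-induced nuclear protein, and IER5, a regulator of the heat shock factor HSF1, lay at 0.47 ± 0.19 and 0.53 ± 0.30. In all 3 genes the groups did not overlap, combination replicate 1 was the highest library, and the lowest combination library was close to the highest PBS library. Without combination replicate 1, 18 of the 25 early genes had both remaining combination libraries below all PBS libraries (2003 of 13085 genes did), and the median was -1.16.

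**Figure D2:**
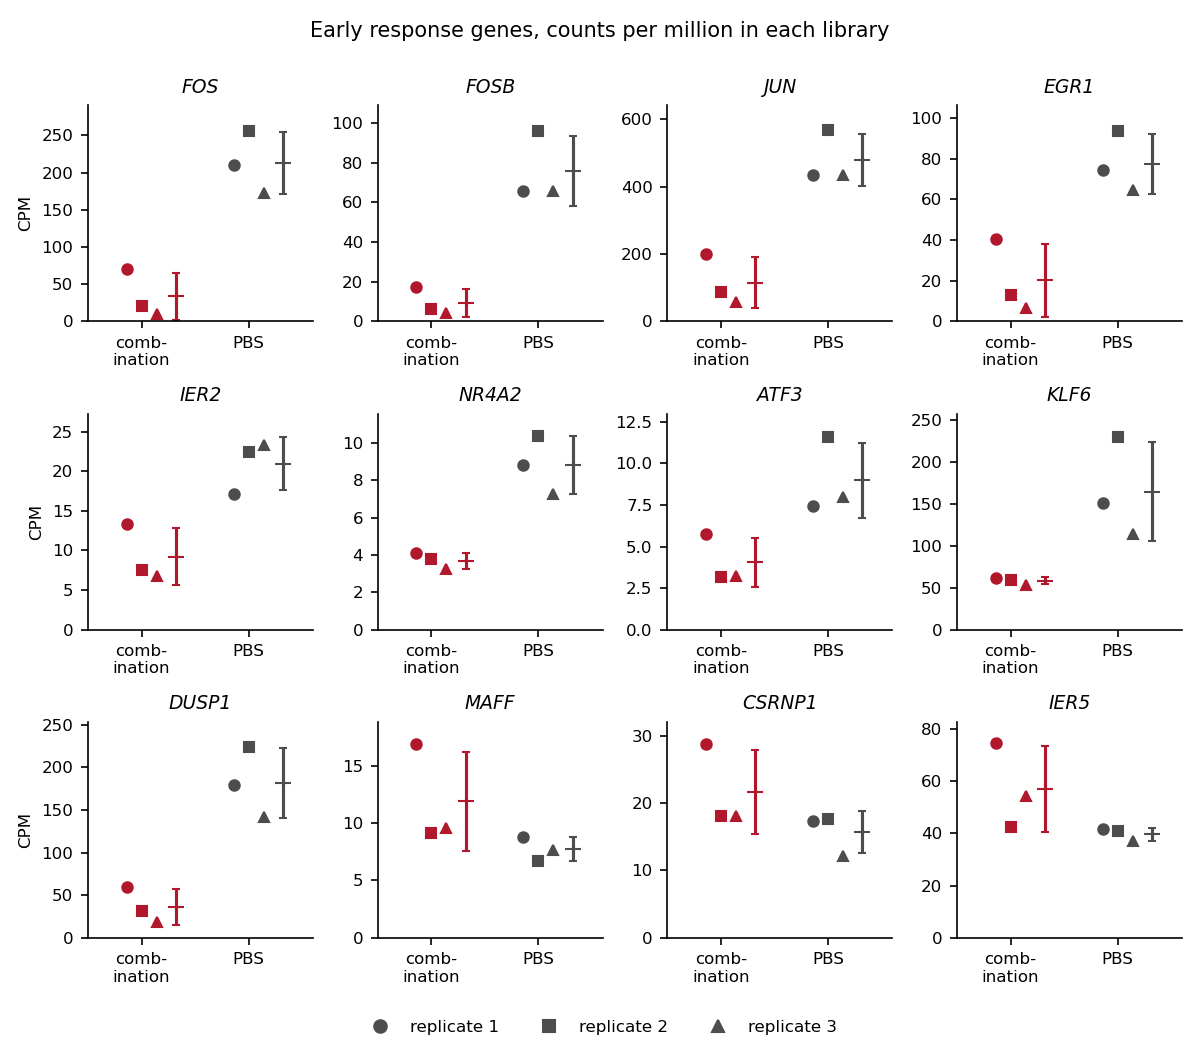
CPM (linear axis from 0) of 12 early response genes in the 3 combination (red) and 3 PBS (grey) libraries; marker shape gives the replicate and the bar beside the points the mean ± SD. In the first 9 panels all combination libraries lie below all PBS libraries; in MAFF, CSRNP1 and IER5 they lie above.

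Genes that feed back on ERK were split. DUSP1, a phosphatase that inactivates MAP kinases and is itself an immediate early gene, was at 59.3, 30.97 and 18.6 CPM in the combination, against 179.9, 224 and 142 CPM in PBS (log2 -2.32 ± 0.53, adjusted p = 0.187). DUSP2, an ERK phosphatase of lymphoid cells, was at 20.1, 11.1 and 11.2 CPM in the combination, against 21.9, 24.5 and 19.4 CPM in PBS, with overlap between the groups (log2 -0.62 ± 0.23). SPRED1, a membrane inhibitor of RAS signalling, was at 69.2, 77.7 and 87.4 CPM in the combination, against 60.5, 51.7 and 47.8 CPM in PBS (log2 0.55 ± 0.15, adjusted p = 0.225). For this list and the next ones, the shares over all genes were 11.3% above PBS without overlap and 10.9% below. Of the 17 tested genes of the ERK feedback list, 5 had all combination libraries above PBS and 3 below. The list median was 0.06, or 0.18 without combination replicate 1 and -0.04 with GC and length offsets. Among NF-kappaB targets and inhibitors 3 of 19 lay above without overlap and 2 below (median 0.24, or 0.12 without combination replicate 1 and 0.10 with GC and length offsets); NFKBIE, the inhibitor IkappaB-epsilon, was at 27.95, 16.7 and 23.01 CPM in the combination, against 14.2, 13.9 and 15.9 CPM in PBS (log2 0.63 ± 0.22), opposite to NFKBIZ. TRIB1, a pseudokinase counted here with the FOXO targets, was at 175, 155 and 143 CPM in the combination, against 277, 332 and 199.6 CPM in PBS (log2 -0.78 ± 0.28), and in the FOXO list 4 of 16 genes lay below PBS without overlap and 0 above (median -0.12, or -0.06 with GC and length offsets). FBXO32, a ubiquitin ligase gene that FOXO factors induce, was at 9.94, 12.6 and 13.8 CPM in the combination, against 13.3, 7.16 and 7.44 CPM in PBS (log2 0.41 ± 0.25).

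Genes of the ER unfolded protein response were higher in the combination by small amounts. All 30 listed genes were tested, and 27 had a log2 difference above 0, with a median of 0.25. In 14 of the 30 every combination library lay above every PBS library, against 11.3% of all genes, and in 1 they lay below. The median was 0.28 with GC and length offsets and 0.27 without combination replicate 1, when 17 of 30 lay above (1975 of 13085 genes did). The ER stress response element, CCAAT and CCACG separated by 9 bases, to which ATF6 and NF-Y bind, was found in the promoters of 6 of the 27 genes with a RefSeq window (CALR, CANX, CRELD2, HSP90B1, HSPA5 and XBP1) and in 27 of 35116 overall (0.0769%). HSPA5 (chr9:125241294-125241593, minus strand) and CRELD2 (chr22:49918384-49918683, plus strand, element on the opposite strand) are shown, with the element in capitals, because they differ in how far their groups separated.
HSPA5: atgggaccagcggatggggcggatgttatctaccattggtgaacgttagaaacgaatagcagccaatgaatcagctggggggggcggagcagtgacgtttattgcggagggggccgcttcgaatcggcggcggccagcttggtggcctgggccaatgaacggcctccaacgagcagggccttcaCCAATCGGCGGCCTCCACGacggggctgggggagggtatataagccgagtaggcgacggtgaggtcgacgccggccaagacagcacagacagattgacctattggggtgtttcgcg
CRELD2: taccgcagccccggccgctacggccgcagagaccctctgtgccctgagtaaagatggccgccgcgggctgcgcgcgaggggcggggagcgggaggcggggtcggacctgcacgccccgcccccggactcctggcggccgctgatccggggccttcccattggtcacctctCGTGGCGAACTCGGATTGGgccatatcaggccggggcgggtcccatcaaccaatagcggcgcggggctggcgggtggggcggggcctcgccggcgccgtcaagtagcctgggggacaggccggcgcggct

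Among ER-associated degradation genes, SYVN1 (HRD1), the ubiquitin ligase at the centre of that pathway, was at 132, 102 and 131 CPM in the combination, against 84.2, 79.9 and 80.3 CPM in PBS (log2 0.58 ± 0.12, adjusted p = 0.158). Its adaptor SEL1L was the 1 member lower without overlap, at 463, 600.1 and 575 CPM in the combination, against 612, 644 and 618 CPM in PBS (log2 -0.19 ± 0.13); with GC and length offsets its difference was 0.12. EDEM1, which extracts mannose-trimmed glycoproteins for disposal, lay at 0.30 ± 0.09. Of the folding enzymes, the protein disulfide isomerase PDIA3 was at 207, 168 and 235 CPM in the combination, against 146, 151 and 141 CPM in PBS (log2 0.48 ± 0.13, adjusted p = 0.218). PDIA4 was at 833, 660.5 and 865 CPM in the combination, against 598, 593 and 602 CPM in PBS (log2 0.40 ± 0.12, adjusted p = 0.252). In SYVN1, PDIA3 and PDIA4 the PBS libraries lay close together and combination replicate 2 was the nearest to them.

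Secreted ER stress factors and chaperones lay on the same side. CRELD2 was at 35.4, 31.9 and 40.4 CPM in the combination, against 27.99, 25.1 and 25.96 CPM in PBS (log2 0.45 ± 0.11, adjusted p = 0.195). MANF, which binds the chaperone BiP, lay at 0.41 ± 0.12, the BiP co-factor SDF2L1 at 0.49 ± 0.17 and the large chaperone HYOU1 at 0.30 ± 0.12. HSPA5, the gene of BiP itself, was at 279, 230.1 and 323 CPM in the combination, against 191, 212 and 207 CPM in PBS (log2 0.45 ± 0.29, adjusted p = 0.488); the groups did not overlap, but the spread within the combination was wide. XBP1, the splicing-activated factor of the response and of plasma cell fate, was at 2231, 2181 and 2293 CPM in the combination, against 2489, 2114 and 2078 CPM in PBS (log2 0.01 ± 0.10), and its groups overlapped. CREB3L2, an ER-tethered transcription factor, was at 393, 306 and 353 CPM in the combination, against 231, 249.6 and 239 CPM in PBS (log2 0.55 ± 0.13, adjusted p = 0.18). FKBP11, a prolyl isomerase of the secretory pathway, lay at 0.38 ± 0.13.

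**Figure D3:**
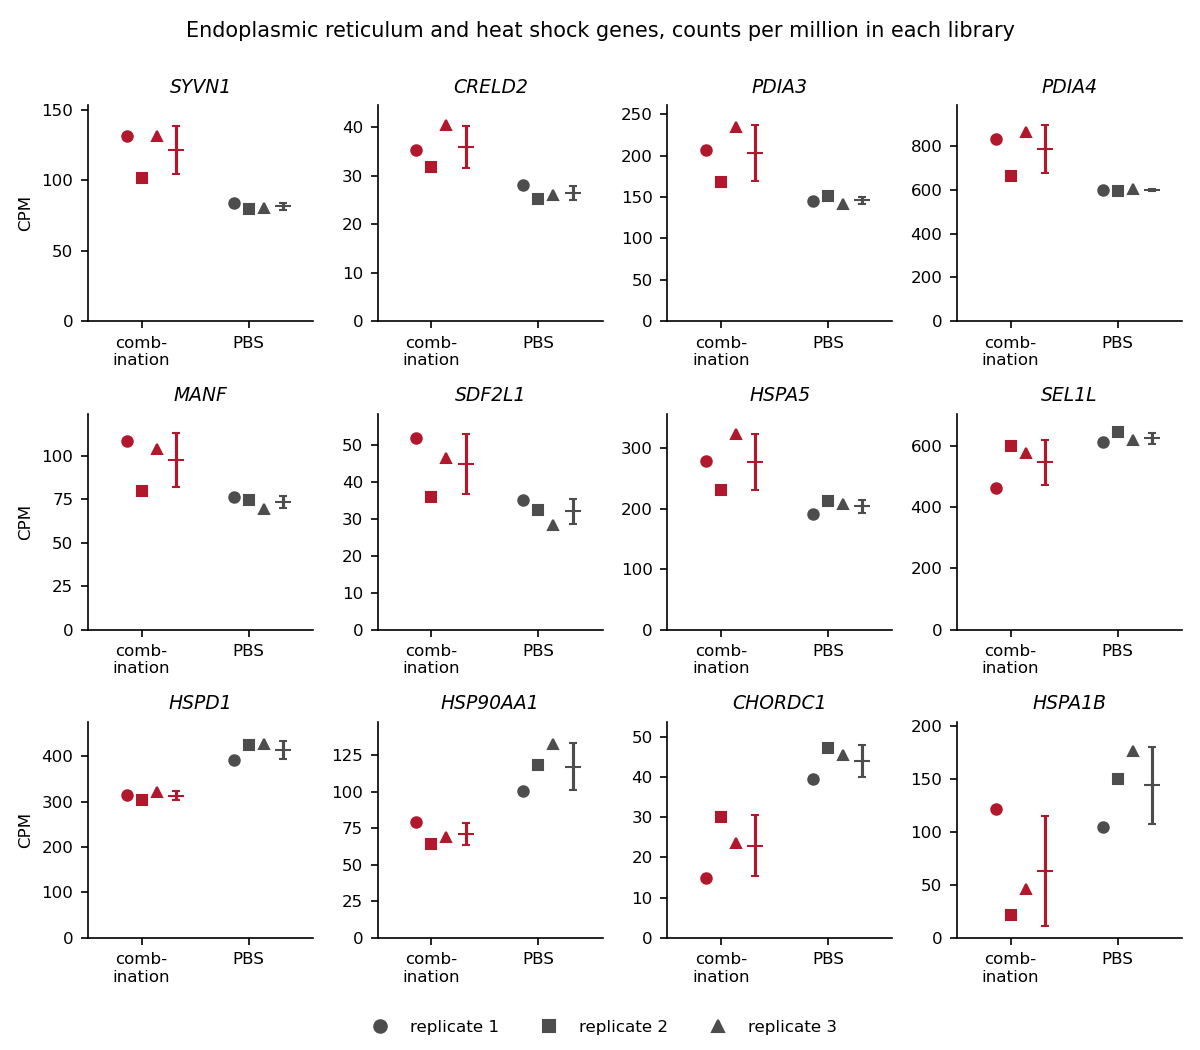
CPM (linear axis from 0) of 8 ER genes and 4 heat shock genes in the 3 combination (red) and 3 PBS (grey) libraries; marker shape gives the replicate and the bar the mean ± SD. SYVN1 to HSPA5 lie higher in all combination libraries, SEL1L, HSPD1, HSP90AA1 and CHORDC1 lie lower, and the groups of HSPA1B overlap.

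The other arm of the ER stress response, the ATF4 programme of amino acid supply, was less clearly separated. Its 28 tested genes had a median of 0.24, which was 0.07 without combination replicate 1 and 0.13 with GC and length offsets, and 1 gene lay above PBS and 3 below without overlap. The 1 above was SLC3A2, the heavy chain of the amino acid transporter, at 141, 88.7 and 117 CPM in the combination, against 85.3, 88.2 and 81.7 CPM in PBS (log2 0.45 ± 0.14). Its partner SLC7A5 lay at 0.59 ± 0.20, ATF4 at 0.27 ± 0.13 and the pro-apoptotic factor DDIT3 (CHOP) at 0.25 ± 0.21, all with overlap. Of the proteasome genes, PSMB5, which encodes the subunit that bortezomib binds, was at 31.6, 23.00 and 28.7 CPM in the combination, against 26.9, 21.5 and 18.7 CPM in PBS (log2 0.32 ± 0.18, adjusted p = 0.433). PSMB4 was the 1 of 13 tested genes of the 20S core above PBS without overlap, at 0.39 ± 0.14, and ADRM1, a ubiquitin receptor, the 1 of 21 of the 19S cap, at 0.32 ± 0.12. The medians were 0.19 for the core and 0.07 for the cap, and without combination replicate 1 they were 0.07 and 0.03.

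Cytosolic and mitochondrial chaperones of the heat shock response lay on the other side of 0 from the ER chaperones. Of 32 listed genes 29 were tested, 9 had a log2 difference above 0, and the median was -0.18. In 9 of 29 the combination libraries lay below PBS without overlap (10.9% of all genes) and in 1, HSF1, above (0.39 ± 0.15). Without combination replicate 1 the count below was 16 of 29 (2003 of 13085 genes did). The heat shock element GAANNTTC was in the promoters of 10 of the 25 genes with a RefSeq window and in 6.77% of all promoters. CHORDC1, a co-chaperone of HSP90, is shown (chr11:90223000-90223299, minus strand) because it holds 3 of these elements (capitals).
CHORDC1: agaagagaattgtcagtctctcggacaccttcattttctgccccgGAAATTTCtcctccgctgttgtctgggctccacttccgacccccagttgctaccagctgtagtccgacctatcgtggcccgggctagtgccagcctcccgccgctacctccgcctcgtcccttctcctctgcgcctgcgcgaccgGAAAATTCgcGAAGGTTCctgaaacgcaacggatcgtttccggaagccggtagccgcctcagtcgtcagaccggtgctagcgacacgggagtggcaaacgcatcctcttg
CHORDC1 was at 14.9, 30.1 and 23.6 CPM in the combination, against 39.5, 47.1 and 45.5 CPM in PBS (log2 -0.96 ± 0.28, adjusted p = 0.252). HSP90AA1, the stress-inducible cytosolic HSP90, was at 79.5, 64.6 and 68.9 CPM in the combination, against 101, 118 and 133 CPM in PBS (log2 -0.72 ± 0.15, adjusted p = 0.158). The 3 combination libraries of HSP90AA1 were close together. HSPD1, the mitochondrial chaperonin HSP60, was at 316, 303 and 321 CPM in the combination, against 392, 425 and 426 CPM in PBS (log2 -0.40 ± 0.08, adjusted p = 0.158). All 3 combination libraries were close together and lay below the PBS libraries, which were also close together. The constitutive HSC70 gene HSPA8 lay at -0.33 ± 0.13 and its co-chaperone DNAJA1 at -0.33 ± 0.11, both without overlap. The inducible HSP70 gene HSPA1B varied most, at 122, 21.6 and 46.6 CPM in the combination, against 105, 150.4 and 177 CPM in PBS (log2 -1.18 ± 0.57), with overlap. HSPA1A was at 1.99, 0 and 0.423 CPM in the combination, against 0.903, 2.13 and 2.42 CPM in PBS; it is nearly identical to HSPA1B, so that reads may have been split between them and both values are uncertain. BAG3, an HSP70 co-chaperone, lay at 0.63 ± 0.24, with overlap.

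**Figure D4:**
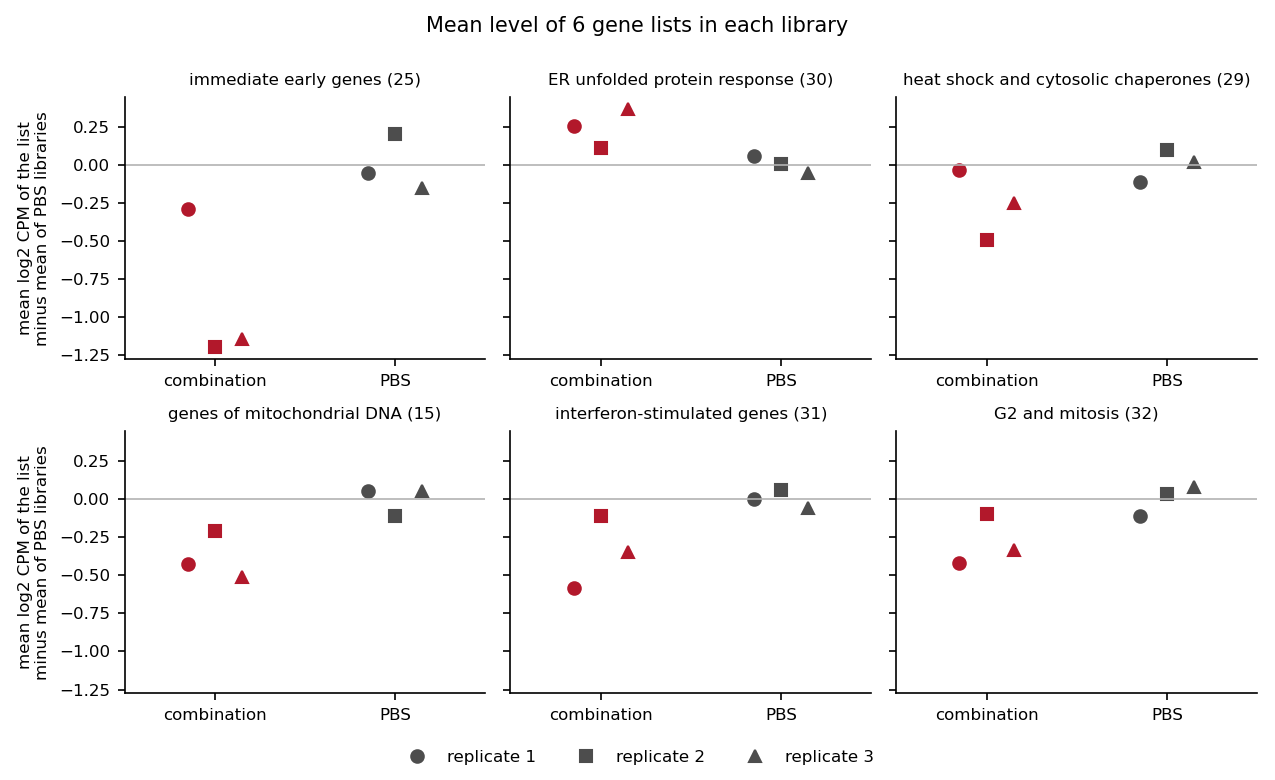
Mean log2 CPM of the tested members of 6 gene lists (number in brackets) in each combination (red) and PBS (grey) library, as a difference from the mean of the 3 PBS libraries. Combination replicate 1 lies nearest to PBS in the immediate early and heat shock lists and farthest from it in the interferon and mitosis lists; in the immediate early, ER, mitochondrial DNA and interferon lists the 3 combination libraries all lie on one side of the 3 PBS libraries.

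Messenger RNAs of mitochondrial DNA were lower in the combination. Of its 15 genes 13 had a log2 difference below 0 (median -0.43, and -0.39 with GC and length offsets). Without overlap, 9 of 15 lay below PBS (10.9% of all genes did) and 0 above (11.3%). These genes are read from long transcripts of the mitochondrial genome and encode core subunits of the respiratory chain. MT-ND4, a subunit of complex I, was at 958, 1335 and 924 CPM in the combination, against 1908, 1670.4 and 1948 CPM in PBS (log2 -0.78 ± 0.26, adjusted p = 0.295). MT-ND5 was at 333, 449 and 328 CPM in the combination, against 593, 589 and 658 CPM in PBS (log2 -0.73 ± 0.28). Combination replicate 2 was the nearest to PBS in both. MT-CO1, the catalytic subunit of complex IV, was at 2206, 2932 and 2234 CPM in the combination, against 3587, 3262 and 3398 CPM in PBS (log2 -0.48 ± 0.19). MT-ND4L lay at -0.73 ± 0.25, and since its reading frame overlaps that of MT-ND4 their reads may not be separable. The genes above 0 were MT-ND3 (0.17 ± 0.17) and the 16S ribosomal RNA MT-RNR2 (0.05 ± 0.14), and the 12S ribosomal RNA MT-RNR1 lay at -0.09 ± 0.54; these 3 and MT-CO3, MT-ND1 and MT-ND6 had overlapping groups. The kit depletes ribosomal RNA, and the mitochondrial DNA genes still held 36.8% to 39.5% of the counts in the combination and 35.5% to 38.7% in PBS.

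Nuclear genes of the respiratory chain had medians on the other side of 0 from the mitochondrial ones. Without combination replicate 1 the complex I median fell below 0, and that of complexes III, IV and V was smaller but stayed above 0. Complex I subunits had a median of 0.09 over 38 genes, or -0.03 without that library and 0.03 with GC and length offsets, with 4 above and 4 below PBS without overlap; NDUFA5 and NDUFV2 lay at -0.53 ± 0.22 and -0.59 ± 0.26. Subunits of complexes III, IV and V had a median of 0.16 over 35 genes, or 0.04 without that library and 0.09 with the offsets, with 3 above and 1 below; ATP5MC2, a rotor subunit of ATP synthase, lay at 0.30 ± 0.12. FDX1, which elesclomol binds, was at 23.3, 23.1 and 28.2 CPM in the combination, against 23.7, 24.4 and 26.7 CPM in PBS (log2 -0.0032 ± 0.12, adjusted p = 0.994), with overlap. LIAS, the lipoyl synthase, lay at -0.40 ± 0.17, also with overlap, and the 15 tested genes of the lipoylation list had a median of -0.01 (-0.003 without that library and 0.004 with the offsets). Of 25 iron-sulfur assembly genes 1 lay above PBS without overlap, the scaffold ISCU (0.29 ± 0.09), and 1 below; their median was 0.04 (0.01 without that library and 0.001 with the offsets).

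Copper-handling genes gave few separations. SLC31A1, the copper importer CTR1, was at 65.3, 41.9 and 54.8 CPM in the combination, against 42.9, 40.8 and 43.4 CPM in PBS (log2 0.35 ± 0.13), with overlap. COX17, which hands copper to complex IV, was at 20.5, 18.9 and 21.5 CPM in the combination, against 23.9, 24.5 and 23.9 CPM in PBS (log2 -0.25 ± 0.11), without overlap. The copper list had 1 of 16 genes above and 2 below PBS, and its median was -0.06, or 0.03 with GC and length offsets. Metallothioneins, metal-binding proteins that copper and zinc induce, were near 0 throughout: MT1X, the highest of those listed, was at 1.22, 0.752 and 1.27 CPM in the combination, against 1.58, 2.13 and 0.519 CPM in PBS, MT2A was at 0.331, 0.150 and 0.141 CPM in the combination and 0, 0.152 and 0.346 CPM in PBS, and none of the 8 listed passed the filter on low counts. The members of that list that were tested were SLC30A1, a zinc exporter, at -0.23 ± 0.19, and MTF1, the metal-responsive factor, at 0.02 ± 0.14; the first differed by 0.07 with GC and length offsets. NFE2L2, which encodes the antioxidant regulator NRF2, was at 28.4, 32.9 and 32.5 CPM in the combination, against 38.6, 42.1 and 41.5 CPM in PBS (log2 -0.39 ± 0.10, adjusted p = 0.204). Its target HMOX1, heme oxygenase 1, was at 1.10, 0.752 and 1.41 CPM in the combination, against 1.58, 1.98 and 0.692 CPM in PBS, with overlap (log2 -0.38 ± 0.59). Of 22 NRF2 genes 3 lay above and 1 below without overlap (median 0.10, or 0.007 without combination replicate 1 and 0.05 with GC and length offsets). Over all genes 11.3% lay above and 10.9% below. Among other metabolic and translation genes, 11 of 72 mitochondrial ribosomal proteins lay above PBS without overlap and 2 below (median 0.09, or 0.01 without combination replicate 1), 3 of 76 cytosolic ribosomal proteins lay above and 1 below (median 0.20, or 0.10), and 4 of 18 glycolysis genes lay above and 0 below (median 0.18, or 0.04; with GC and length offsets 0.06).

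Among BH3-only genes, the death initiators of the BCL2 family, PMAIP1 (NOXA) stood opposite to BMF. PMAIP1 was at 5.86, 4.81 and 4.38 CPM in the combination, against 10.2, 10.97 and 10.04 CPM in PBS (log2 -1.04 ± 0.23, adjusted p = 0.158). BMF was at 21.5, 10.97 and 14.4 CPM in the combination, against 10.8, 7.16 and 10.7 CPM in PBS (log2 0.73 ± 0.23). Both sets of libraries were without overlap, that of BMF narrowly. BID, which links death receptors to mitochondria, lay at 0.31 ± 0.11, and BCL2L11 (BIM) at 0.22 ± 0.30 with overlap. Of their partners, MCL1, the survival protein on which myeloma cells depend and which NOXA binds, was at 816, 771 and 792 CPM in the combination, against 954, 1029 and 924 CPM in PBS (log2 -0.29 ± 0.14), and BCL2L1 (BCL-XL) at -0.24 ± 0.13, both lower without overlap. They were the 2 of 7 tested BCL2 survival proteins and effectors with a difference below 0. The other 5 lay above 0, with 0 above PBS without overlap. The median of that list was 0.08 (0.10 without combination replicate 1 and 0.04 with GC and length offsets).

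Regulators of myeloma identity lay on both sides of 0. IRF4, the transcription factor on which myeloma survival rests, was at 815, 986 and 848 CPM in the combination, against 818, 888 and 894 CPM in PBS (log2 0.03 ± 0.11). MYC, which IRF4 supports, was at 653, 527 and 609.6 CPM in the combination, against 523, 456 and 479 CPM in PBS (log2 0.30 ± 0.13, adjusted p = 0.354). The MYC groups did not overlap, though combination replicate 2 was close to PBS replicate 1. Of 23 transcription factors 7 lay above PBS without overlap and 2 below, the median being 0.03 (0.06 without combination replicate 1 and 0.09 with GC and length offsets); besides CREB3L2 these included HDAC7 (0.35 ± 0.12), FOXO1 (0.45 ± 0.16) and POU2F2 (0.59 ± 0.21). Of 25 surface antigens and homing receptors 4 lay above and 5 below (median -0.09, or -0.04 without combination replicate 1 and -0.03 with GC and length offsets). The shares over all genes were 11.3% above and 10.9% below. The adhesion receptor ITGA6 was at 27.7, 39.7 and 35.3 CPM in the combination, against 49.7, 51.5 and 53.7 CPM in PBS, and ITGB1, its beta chain, was at 58.7, 69.3 and 65.1 CPM in the combination, against 81.5, 75.6 and 74.9 CPM in PBS (log2 -0.27 ± 0.09). CXCR4, the receptor that retains myeloma cells in marrow, was at 137, 76.5 and 139 CPM in the combination, against 89.8, 58.2 and 53.7 CPM in PBS (log2 0.81 ± 0.32), with overlap in replicate 2. LY9, a SLAM-family receptor, lay at 0.33 ± 0.11.

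Mitotic and interferon lists had medians below 0. Of 32 genes of G2 and mitosis 8 lay below PBS without overlap and 0 above, against 10.9% and 11.3% of all genes (median -0.12). Without combination replicate 1 the median was -0.19 and 11 of 32 lay below (2003 of 13085 genes did). CDK1, the kinase that starts mitosis, was at 50.5, 79.7 and 63.7 CPM in the combination, against 89.6, 91.4 and 95.9 CPM in PBS (log2 -0.52 ± 0.14, adjusted p = 0.235). TOP2A, topoisomerase 2 alpha, was at 150.5, 323 and 251 CPM in the combination, against 334, 359 and 388 CPM in PBS (log2 -0.58 ± 0.26). Replicate 1 was the lowest in each. The spindle checkpoint kinase TTK lay at -0.67 ± 0.26, the proliferation marker MKI67 at -0.43 ± 0.19 with overlap, and the replication polymerase POLA1 at -0.45 ± 0.14. POLA1 belongs to the list of DNA replication and S phase, of which 16 of 33 genes lay above 0 and 17 below. The median of that list was -0.004 (-0.09 without combination replicate 1 and -0.06 with GC and length offsets). In it 3 genes lay below PBS without overlap and 0 above. Of 31 interferon-stimulated genes 9 lay below and 0 above, against 10.9% and 11.3% of all genes (median -0.27). PARP14, an ADP-ribosyltransferase, was at 23.9, 49.3 and 30.5 CPM in the combination, against 52.8, 59.6 and 64.7 CPM in PBS (log2 -0.78 ± 0.24). IFIT1, which binds viral RNA, was at 0.884, 3.46 and 2.54 CPM in the combination, against 6.32, 6.71 and 4.67 CPM in PBS (log2 -1.40 ± 0.45), IFIT3 lay at -0.71 ± 0.27, and the exonuclease gene ISG20 was on the other side at 0.45 ± 0.17.

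Among markers of host cells, collagens stood out. COL1A1, the main bone collagen, was at 16.2, 11.1 and 29.1 CPM in the combination, against 3.84, 2.13 and 3.98 CPM in PBS (log2 2.53 ± 0.82, adjusted p = 0.291). COL1A2 lay at 1.64 ± 0.64 and COL5A1 at 2.28 ± 0.77, also without overlap. COL5A1 was near the floor, at 1.77, 1.05 and 1.69 CPM in the combination, against 0.451, 0.152 and 0.346 CPM in PBS. PDGFRB, a receptor of pericytes, was lower at -1.08 ± 0.41. Of 23 stromal and bone markers 14 were tested, with 9 above 0 and 5 below. Without overlap, 5 lay above PBS and 1 below, against 11.3% and 10.9% of all genes. The summed level of the list was 630.0 to 990.2 CPM in the combination, against 602.2 to 709.1 CPM in PBS. Most of that sum was VIM (vimentin), at 844, 509 and 733 CPM in the combination, against 584, 494 and 545 CPM in PBS, with overlap. The bone markers IBSP and SP7 were at 0 in all 6 libraries. The erythroid list summed to 199 to 225 CPM in the combination and 208 to 225 CPM in PBS, most of it TFRC, the transferrin receptor of all dividing cells (180.2, 159 and 155 CPM in the combination, against 146, 156 and 150.2 CPM in PBS), with HBA1 and GATA1 at 0 in all 6. The granulocyte list summed to 30.1 to 48.6 CPM in the combination and 27.2 to 45.7 CPM in PBS, and the macrophage list to 26.5 to 32.8 CPM in the combination and 20.3 to 39.2 CPM in PBS. The endothelial list summed to 6.16 to 10.2 CPM in the combination and 3.66 to 6.55 CPM in PBS. Its 4 tested markers had a median of 0.91, and 1 of them, TIE1, lay above PBS without overlap. TIE1 was near the floor, at 0.884, 0.601 and 0.847 CPM in the combination, against 0, 0.152 and 0.519 CPM in PBS. The part of host cells in the gene differences was not tested.

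Set beside the single drugs, the combination gave the lowest median of the early, mitochondrial DNA, heat shock and interferon lists, among others. The median log2 difference from PBS of the immediate early list was -0.65 in the combination, -0.14 in bortezomib and -0.58 in elesclomol, and these comparisons share the PBS libraries. The combination and elesclomol medians were close. The mean log2 CPM of that list had an SD of 0.38 between replicates within the combination and PBS. JUN averaged 115 ± 74.8 CPM in the combination, 243 ± 9.64 CPM in bortezomib, 127 ± 54.8 CPM in elesclomol and 478 ± 77.1 CPM in PBS (SD, n = 3 each). The ER list had medians of 0.25 in the combination, 0.23 in bortezomib and 0.08 in elesclomol, and the mitochondrial DNA genes -0.43, -0.09 and 0.01 in the same order. The heat shock list lay at -0.18, -0.02 and -0.12, and the interferon list at -0.27, -0.08 and 0.13. Tested directly with edgeR, 0 genes passed between the combination and bortezomib (0% called; 554 at an unadjusted p under 0.05, DESeq2 1 gene, limma voom 35, and 5 with the replicate block within those 2 groups) and 0 between the combination and elesclomol (0% called; 1597 at an unadjusted p under 0.05, DESeq2 53, limma voom 205). Differences between these list medians were not tested.

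Against bortezomib the smallest adjusted p, 0.139, belonged to AC010719.1, which has a clone name only. Under the naming rule, which leaves out such genes, low genes and overlapping groups, the genes of smallest p were ATP8A2, a phospholipid flippase, H1FX, a linker histone, and MTRNR2L10. ATP8A2 was at 19.4, 14.6 and 20.9 CPM in the combination, against 10.2, 11.1 and 10.4 CPM in bortezomib (log2 0.79 ± 0.17, adjusted p = 0.999). H1FX was at 279.8, 225 and 219.9 CPM in the combination, against 404, 344 and 400.4 CPM in bortezomib (log2 -0.66 ± 0.16). That the groups did not overlap in either was required by the rule. Same-numbered combination and bortezomib libraries deviated together in replicates 1 and 2. With the replicate number as a block within these groups 5 genes passed, against 0 with the block over all libraries. H1FX was among the 5 (log2 -0.66, edgeR adjusted p = 0.0487, in a range of 0.000465 to 0.99997 over the alternatives run). With the block within these groups the edgeR adjusted p was 0.137 for ATP8A2 and 0.178 for MTRNR2L10, which were not among them. Reads of H1FX and of its antisense partner H1FX-AS1 may not be separable. MTRNR2L10 is a nuclear copy of the mitochondrial 16S gene, with which it can share reads, and its value of 0.59 ± 0.14 is uncertain. Against elesclomol the genes were HDAC9, GOLPH3L and SPRED1, each with adjusted p = 0.0888. SPRED1 was at 69.2, 77.7 and 87.4 CPM in the combination, against 41.7, 43.7 and 44.1 CPM in elesclomol (log2 0.85 ± 0.15). GOLPH3L, a Golgi phosphoinositide-binding protein, was at 77.8, 73.8 and 74.95 CPM in the combination, against 47.4, 36.7 and 49.8 CPM in elesclomol (log2 0.76 ± 0.13). Here too, groups without overlap were a condition of the naming rule.

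Whether the combination departed from the sum of the single drugs on the log scale was tested by the interaction, combination minus bortezomib minus elesclomol plus PBS. It was called in 1 gene (0.00764%), HDAC9, a class IIa histone deacetylase that binds MEF2 factors; 1150 genes had an unadjusted p under 0.05, DESeq2 called 32 and limma voom 310. HDAC9 was at 86.9, 92.6 and 71.8 CPM in the combination, 70.5, 58.4 and 44.6 CPM in bortezomib, 44.03, 46.5 and 40.3 CPM in elesclomol and 114, 85.3 and 98.7 CPM in PBS. The single-drug libraries were lower than PBS, and the combination libraries overlapped PBS (log2 -0.25 ± 0.16). The interaction was 1.72 ± 0.23 on the log2 scale (adjusted p = 0.0229), and it kept its direction in every alternative run, at 1.57 to 1.89, but its adjusted p exceeded 0.05 when PBS replicate 1 or 3, combination replicate 2, bortezomib replicate 2 or 3, or any elesclomol library was left out, the highest of these being 0.106. When the level of host markers entered as a covariate, the adjusted p was 0.18, and with GC and length offsets 0.159. BCL2L11, the gene of the death initiator BIM, had the opposite shape. It was at 192, 138 and 206 CPM in the combination, 164, 433 and 417 CPM in bortezomib, 432, 404 and 349.5 CPM in elesclomol and 183, 154 and 124 CPM in PBS. All elesclomol libraries and bortezomib replicates 2 and 3 were above every combination library, while bortezomib replicate 1, a library rich in GC like combination replicate 1, was not. Its interaction of -2.29 ± 0.42 did not pass (edgeR adjusted p = 0.107). Without bortezomib replicate 1 it was -2.62 with an adjusted p of 2.85e-04. With any other single library left out, the adjusted p was 0.13 to 0.383, and with the host marker covariate 0.326. It was 8.59e-05 with DESeq2, 0.00495 with limma voom and 2.47e-04 without the GC-rich libraries (edgeR).

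**Figure D5:**
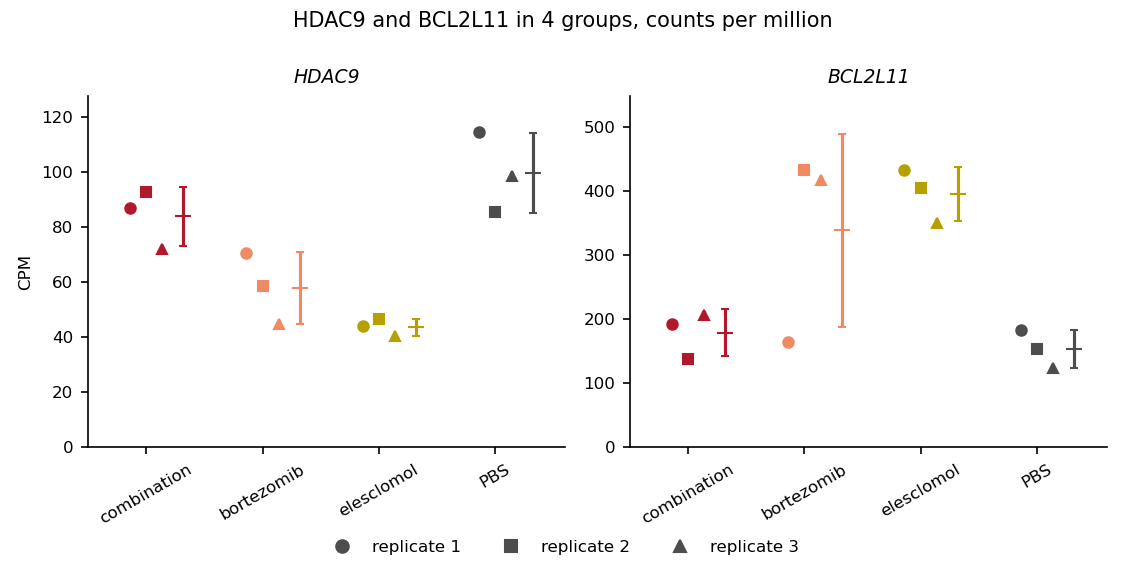
CPM (linear axis from 0) of HDAC9 and BCL2L11 in the combination, bortezomib, elesclomol and PBS libraries; marker shape gives the replicate and the bar the mean ± SD of 3. HDAC9 is lower in all single-drug libraries than in any combination or PBS library, and BCL2L11 is higher in 5 of the 6 single-drug libraries.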

How the data were processed

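Marrow RNA of 15 libraries (5 groups of 3) was sequenced after removal of ribosomal RNA (TruSeq Stranded Total RNA), per the labels' protocols. The deposited values are raw counts per Ensembl gene; STAR 2.5.4b, featureCounts 1.6.1 and build GRCh37 are listed in the submitters' processing notes. For the annotation release, the strand setting and mouse reads, the method is not given in the sources used here. Without a stated strand setting, overlapping antisense genes are uncertain. Gene names were matched for 52338 of 57773 IDs (the rest held 1.07% of counts).

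Counts were fitted with edgeR 4.0.16 (R 4.3.3; TMM, filterByExpr with a minimum count of 10, robust quasi-likelihood test) over all 15 libraries, and p-values were Benjamini-Hochberg adjusted over 13085 genes (biological coefficient of variation 0.171; threshold 0.05). CPM use TMM-scaled library sizes. Log2 differences are combination minus the other group. DESeq2 1.42.0 and limma 3.58.1 were alternatives, and the fit was tested on simulated data. No 2 replicates agreed within sampling noise.

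The comparison and the 45 gene lists were chosen with earlier results of these data known. Genes named were the 12 of smallest p in each direction without overlap between groups, up to 4 of smallest p per list, and a fixed set of pathway genes; other list members were named after their values were seen. Same-numbered combination and PBS libraries did not deviate together (correlations of -0.0305, 0.0134 and -0.0816), nor did all combination and elesclomol libraries (-0.0729, 0.266 and -0.0694). Combination and bortezomib libraries did in replicates 1 and 2 (0.655 and 0.523), a pattern seen in the data and not stated in the labels. In replicate 3 the correlation was 0.118, below the 0.222 of combination replicate 3 with bortezomib replicate 2. The blocked value stands beside the bortezomib comparison where it differs.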

Additional observations from a re-analysis of the deposited data

Results flagged for a closer look

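The interaction of the drugs in HDAC9, 1.72 on the log2 scale, was the 1 result past the threshold among the comparisons that involve the combination. It was picked out because the effect of adding bortezomib differed with and without elesclomol, by a test of that difference itself: combination minus elesclomol was 0.94 ± 0.16 and bortezomib minus PBS was -0.78 (log2, the first with its SE). Its adjusted p from edgeR was 0.0229, and from 0.0503 to 0.106 when any of 8 libraries was left out (combination 2, PBS 1 and 3, bortezomib 2 and 3, elesclomol 1, 2 and 3). Whether GC content or host cells have a part in it was not tested beyond the alternatives reported for HDAC9 with the processing.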

How the results depend on the processing

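The 4 counts of genes past the threshold, in the order PBS, bortezomib, elesclomol and interaction, were 0, 0, 0 and 1. They were 51, 1, 53 and 32 with DESeq2; 1394, 35, 205 and 310 with limma voom and quality weights; 211, 14, 291 and 127 with no filter; and 9, 4, 12 and 46 without the 3 GC-rich libraries (bortezomib 1, combination 1 and delayed combination 2). Fitting only the groups compared gave 6 genes against PBS and 5 for the interaction. GC and length offsets gave 2 for the interaction, and the host marker covariate gave 0. Leaving out 1 library gave 0 to 6 against PBS (6 without combination replicate 2), 0 against bortezomib, 0 to 1 against elesclomol (1 without elesclomol replicate 3) and 0 to 27 for the interaction (27 without bortezomib replicate 1). Except for fewer libraries or genes tested, the cause was not tested.

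The replicate block (the labels do not say that numbers pair libraries) gave 2 genes against PBS (NFKBIZ and RHOB), 1 against elesclomol and 2 for the interaction over all libraries. Within the groups compared it gave 3 against PBS, 5 against bortezomib and 10 for the interaction, and with GC and length offsets 5 against elesclomol.

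Of 121 single values for named genes, 26 alternatives turned the sign. The difference was near 0 in FDX1, XBP1, IRF4 and MTF1. It was not near 0 in SLC30A1, SEL1L and HDAC9 against PBS, which turned only with the GC and length offsets. With GC and length offsets, alone and with the block, SLC30A1 was at 0.071 and 0.067, FDX1 at 0.11 and 0.104, HDAC9 against PBS at 0.091 and 0.070, and SEL1L at 0.117 and 0.107. FDX1 was also at 0.104 with voom, 0.011 with no filter and 0.051 without the GC-rich libraries, and at -0.116 to 0.044 when 1 library was left out. XBP1 was at -0.0049 with DESeq2 size factors and -0.0048 with the DESeq2 test, and at -0.052 to 0.091 with 1 library left out. IRF4 was at -0.0052 with voom and at -0.076 to 0.081 with 1 library left out. MTF1 was at -0.029 without the GC-rich libraries and at -0.075 to 0.083 with 1 library left out. The HDAC9 interaction lost its call in 11 alternatives. List medians moved by less than the spread between replicates in 805 values and by more in 44.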

Other observations

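For lists outside the described groups, counts of separated genes stand against 11.3% of all genes above and 10.9% below. In autophagy and lysosome genes 4 of 25 lay above PBS without overlap in the combination and 0 below, with 19 above 0 and a median log2 difference of 0.18 (0.10 with GC and length offsets). Citric acid cycle genes lay above in 3 of 21 and below in 0 (median 0.09, or 0.02 without combination replicate 1 and 0.04 with the offsets). Hypoxia genes lay above in 2 of 20 and below in 3 (median 0.14, or 0.00 without combination replicate 1), and p53 targets above in 2 of 22 and below in 2 (median 0.05, or 0.03 with the offsets). MHC class I presentation genes had a median of -0.09, with 1 of 16 above and 1 below. Without combination replicate 1 the median was -0.17 and 8 of 16 lay below (2003 of 13085 genes did). With the offsets the median was -0.19. Cholesterol synthesis genes had a median of -0.02 (-0.004 without that library and -0.09 with the offsets), and glucocorticoid receptor targets 0.01 (-0.08 and 0.05).

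NEAT1, a nuclear RNA that builds paraspeckles, was at 1125, 1037 and 1145 CPM in the combination, against 536.6, 538 and 457 CPM in PBS, so that every combination library lay above every PBS library. MALAT1, its neighbour in the genome, was lower in combination replicates 1 and 3 than in any PBS library.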
